A study of Mus musculus with 6 samples.

Results

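Asz1 and Dpep3 are germline genes, both known for promoters that are methylated in somatic cells, and their RNA was followed in 6 mouse tumours. They are 2 of 10772 genes that could be named from the positions at which reads were counted, and of 4578 such genes with enough counts for a test. Each gene was taken from the counted row that covers at least 50 bp of exons of that gene and of no other, using the row with most counts. Both genes have 1 such row. Asz1 is well measured by its row. The row for Dpep3 is not a clear measure of Dpep3, for reasons of position given below, and it is called here the Dpep3 row.

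The tumours came from LG1233-OVA, a line labelled murine lung cancer; OVA is usually short for the model antigen ovalbumin. One group of 3 tumours grew from cells with the guide sgNT (genotype WT, treatment Control) and the other 3 from cells with sgUhrf1 (genotype Uhrf1 Knockout), a stable line made with CRISPR/Cas9. Each female C57BL/6 host received 1000000 cells under the skin, and tumours were taken on day 27; host age is not given in the labels. The labels call the tumours of a group biological replicates and do not say whether the knockout line is 1 clone or a pool. All hosts kept an intact Uhrf1 gene, and the RNA is of whole tumours, in which fewer cells of a type and less RNA per cell cannot be told apart.

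ASZ1, also called GASZ, is a protein with ankyrin repeats that sits between mitochondria and the nuage of male germ cells. There it takes part in making PIWI-interacting RNAs (piRNAs), small RNAs that keep transposons silent, and male mice without it are infertile. DPEP3 is a membrane dipeptidase with a GPI anchor found in testis, where it binds the germ cell protein TEX101. UHRF1 binds CpG sites methylated on one strand only and brings the methyltransferase DNMT1 to them, which keeps methylation through cell division.

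The sequence just upstream of both genes is shown because CpG sites there are where the known methylation sits. Each line gives the 250 bases before the RefSeq start of the gene (build GRCm38.p6, minus strand, 5′ to 3′), with CpG sites in capitals. The windows are chr6:18109062-18109311 for Asz1 and chr8:105979420-105979669 for Dpep3.
Asz1: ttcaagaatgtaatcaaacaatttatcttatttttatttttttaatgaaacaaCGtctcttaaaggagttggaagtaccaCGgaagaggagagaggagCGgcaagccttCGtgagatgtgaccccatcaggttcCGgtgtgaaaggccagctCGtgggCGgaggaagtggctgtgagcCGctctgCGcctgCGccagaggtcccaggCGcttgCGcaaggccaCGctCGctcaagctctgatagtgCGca
Dpep3: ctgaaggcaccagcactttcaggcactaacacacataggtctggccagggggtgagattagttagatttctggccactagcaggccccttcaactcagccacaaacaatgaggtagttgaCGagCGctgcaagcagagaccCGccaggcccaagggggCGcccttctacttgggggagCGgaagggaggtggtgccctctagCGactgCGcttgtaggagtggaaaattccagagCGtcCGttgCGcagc
Asz1 has 15 CpG sites in the printed bases and Dpep3 has 10. Over the full 300-base promoter, which adds 50 bases after the start, Asz1 had 17 CpG sites, a GC content of 54.3% and an observed over expected CpG ratio of 0.783. Dpep3 had 12 sites, 59% GC and a ratio of 0.462. The median of all 32841 promoters from RefSeq was 7 sites, 52.7% GC and a ratio of 0.384, and 68.6% of promoters had fewer sites than Asz1 and 60.4% fewer than Dpep3. The 49 promoters found for 39 other genes of a germline list had a median of 18 sites and a ratio of 0.707, so Asz1 lay close to that median and Dpep3 below it. Both strands were searched for CACGTG, an E-box bound by MGA and MAX, and for TCCCGC, an E2F6 type site; these letters were in neither promoter. Of all 32841 promoters 7.15% held CACGTG and 20% held TCCCGC, and in those of the other germline genes 46.9% and 40.8% did. No methylation was measured in these samples.

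Asz1 (ENSMUSG00000010796.11) lies on chromosome 6 at 18050964 to 18109061 of GRCm38, on the minus strand. Its row covers 2817 of its 2829 exon bases, and no other row covers any of them. Replicates 1, 2 and 3 of sgNT had 10, 5 and 0 counts, and those of sgUhrf1 had 69, 183 and 75; counts are given in this order throughout. As CPM (counts per 1000000, scaled by TMM) these were 1.58, 0.741 and 0 against 12.2, 29.0 and 16.5. Every sgUhrf1 tumour lay above every sgNT tumour, with sgUhrf1 replicate 2 highest and sgNT replicate 3 without a count. A count of 0 gave a 95% counting interval of up to 0.654 CPM in that tumour. The floor used here is 3 counts, there 0.532 CPM, and is not the end of that interval. The lowest sgUhrf1 tumour had a 95% counting interval of 9.51 to 15.5 CPM, and the highest sgNT tumour one of 0.759 to 2.91 CPM. The exact Poisson intervals and the floor cover counting error only. The 2 higher sgNT tumours had intervals that overlap, so their order is within counting error, whereas the interval of sgUhrf1 replicate 2, at 25.0 to 33.6 CPM, lay above those of the other sgUhrf1 tumours.

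Asz1 rose from 0.775 ± 0.792 CPM (SD, n = 3) in sgNT to 19.3 ± 8.75 CPM (SD, n = 3) in sgUhrf1 tumours. Its log2 fold change was 4.57 ± 0.72 (SE), with an adjusted p of 0.00154 in the quasi-likelihood test of edgeR. The fold of means was 24.8, and the ratio of summed, scaled counts had a 95% counting interval of 14.8 to 44.7. The comparison as a whole was broad: 39.9% of the 10503 rows tested passed the threshold of an adjusted p of 0.05, 20.2% as higher and 19.7% as lower in sgUhrf1. Among genes named by position the share was 42.2%, with 20.6% higher and 21.5% lower. The groups did not overlap in 54.4% of rows, with sgUhrf1 above in 26.6%. A call alone therefore sets Asz1 little apart, while by log2 fold change it ranked 207 from the top, at percentile 98.0. An exact two-sided permutation test over the 6 tumours gave p = 0.1, the smallest value that 3 against 3 allows. In 15 other fits the log2 fold change stayed between 4.03 and 5.51, with an adjusted p of at most 0.0119; the highest value was without sgNT replicate 1.

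**Figure D1:**
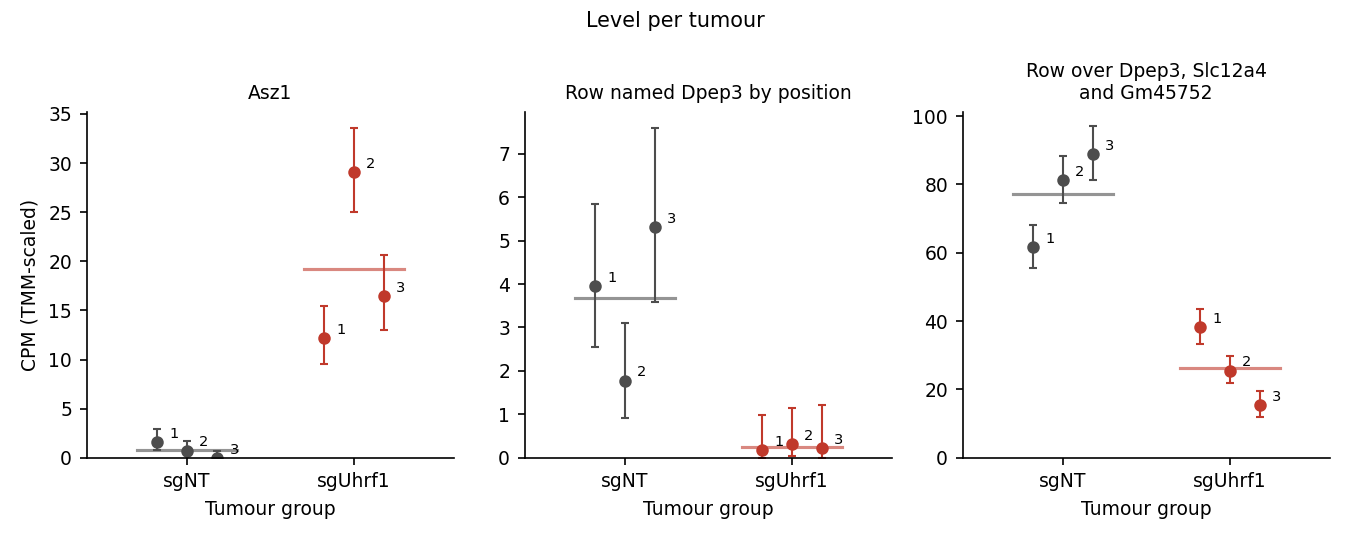
CPM (y axis, TMM-scaled, linear) of the Asz1 row, the Dpep3 row and the row over Dpep3, Slc12a4 and Gm45752 in each tumour, by group (x axis). Numbers are replicates, bars are 95% counting intervals and horizontal lines are group means; the groups do not overlap in any panel, with sgUhrf1 above for Asz1 and below for both other rows.

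Dpep3 (ENSMUSG00000031898.9) lies on chromosome 8 at 105973513 to 105979429 of GRCm38, on the minus strand, in 10 exons of 1698 bases. The Dpep3 row, listed in the files under the name B3gnt9, spans 2516 bases, of which 160 lie in the first exon of Dpep3. None of these 160 bases is in this row alone, because the row listed as D230025D16Rik covers them too. The other 2356 bases lie upstream of the gene's start, and 2100 of them are in no other row. By default featureCounts leaves out a read pair that fits more than 1 row equally, so a pair that lies within the annotated Dpep3 transcript could not be given to this row alone. Its counts come from pairs that reach into the upstream stretch, which holds no annotated exon and lies inside an intron of the long noncoding RNA Gm45752, on the opposite strand. The counting used no strand setting, so strands cannot be told apart.

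**Figure D2:**
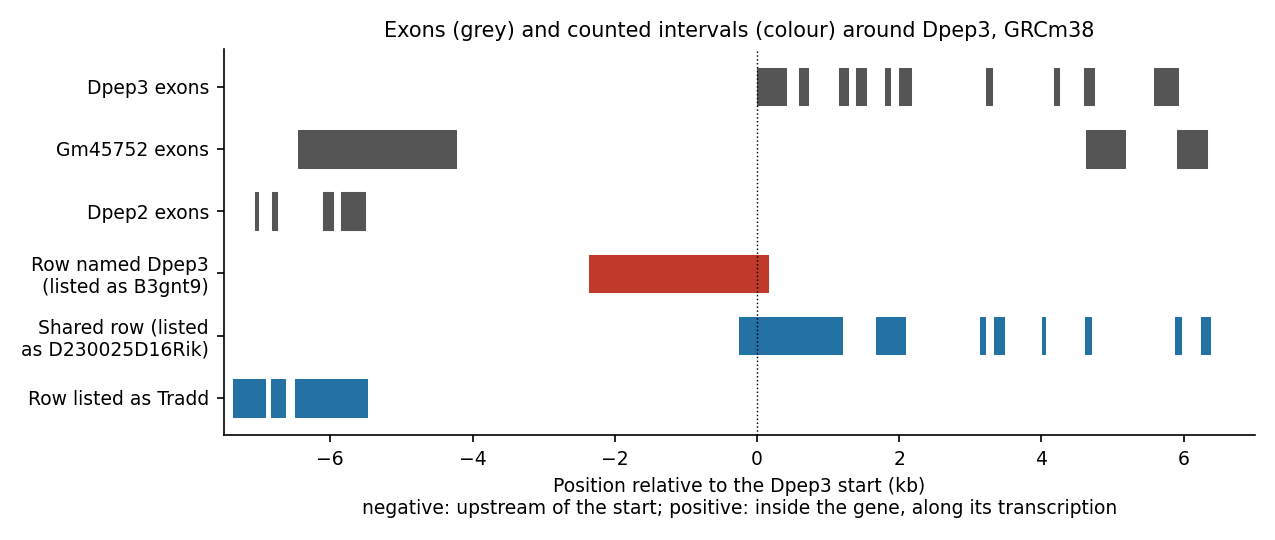
Annotated exons (grey) and counted intervals (red, the Dpep3 row; blue, other rows) by distance in kb from the Dpep3 start (dotted line), with negative values upstream. The Dpep3 row lies almost wholly upstream, and its 160 bases of exon lie under the blue row as well.

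The Dpep3 row had 25, 12 and 30 counts in sgNT against 1, 2 and 1 in sgUhrf1. The levels were 3.96, 1.78 and 5.32 CPM in sgNT and 0.177, 0.317 and 0.220 CPM in sgUhrf1. Each sgUhrf1 tumour was at or under the floor of 3 counts and under each sgNT tumour; 27.8% of all tested rows were lower without overlap. The row fell from 3.68 ± 1.78 CPM to 0.238 ± 0.072 CPM (SD, n = 3 each), a log2 fold change of -3.81 ± 0.70 (SE) with an edgeR adjusted p of 0.00317. It stood at percentile 0.438 of all rows by log2 fold change. The groups held 67 and 4 counts in sum, a ratio of 14.8 with a 95% counting interval of 5.51 to 55.8. The exact permutation test again gave its smallest value, p = 0.1. Over 14 other fits the log2 fold change ran from -4.17 to -3.36 and the adjusted p was at most 0.0194. The fit that kept rows with at least 30 counts in 3 tumours left this row out.

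More of the Dpep3 exons lie under the row listed as D230025D16Rik, which was examined after the values of the Dpep3 row were seen. It spans 4704 bases and covers 866 bases of Dpep3 exon, 706 of them in this row alone. It also covers 421 exon bases of Slc12a4, a potassium and chloride cotransporter gene, and 219 of Gm45752. Of its bases, 3838 lie outside Dpep3 exons. Most of the row lies in no annotated exon, in part in introns of Dpep3. This row had 389, 548 and 502 counts in sgNT against 216, 161 and 70 in sgUhrf1. The levels were 61.6, 81.2 and 89.0 CPM in sgNT and 38.2, 25.6 and 15.4 CPM in sgUhrf1. It also fell without overlap, from 77.3 ± 14.1 to 26.4 ± 11.4 CPM (SD, n = 3 each), by 1.54 ± 0.32 (SE) on the log2 scale with an edgeR adjusted p of 0.00525. Which of its 3 genes, or which stretch outside exons, gave those reads was not tested. In a row over 818 bases of Slc12a4 and 158 of Lcat the change was 0.20 ± 0.19 on the log2 scale and did not pass (edgeR adjusted p = 0.440). On the upstream side, the row over Gm45752 and Dpep2, a related dipeptidase gene, had 323, 240 and 460 against 129, 87 and 243 counts; its change of -0.91 ± 0.48 did not pass (adjusted p = 0.157). Both rows that touch Dpep3 were thus lower in sgUhrf1 tumours, the opposite direction to Asz1, and over the 6 tumours the log2 CPM of Asz1 and the Dpep3 row had a Pearson r of -0.922, which describes groups set apart in opposite directions. No row gave a count of Dpep3 exons alone, so the direction of Dpep3 itself was not settled by these files.

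Other germline genes with methylated promoters had few counts in both groups where they could be read in a row of their own. Of 47 genes in that list, 22 had such a row, and Asz1 and the Dpep3 row were the only ones with enough counts for a test. The other 20 had 36 counts or fewer over the 6 tumours, and 5 had none: Tex101, whose protein binds DPEP3, Gtsf1, Hormad1, Sycp1 and D1Pas1. Summed, the 20 genes had 21, 20 and 18 counts against 44, 24 and 30, so all of them together stayed below Asz1 alone in every sgUhrf1 tumour. In CPM the sums were 3.33, 2.96 and 3.19 against 7.79, 3.81 and 6.60. More counts in sgUhrf1 were seen for 9 of the 20 and more in sgNT for 6. Piwil2, a PIWI protein gene and the highest of them, had 1, 5 and 9 counts against 7, 7 and 7. Mei1, needed for meiotic DNA breaks, had 0 in each sgNT tumour and 3, 2 and 4 in sgUhrf1. The germ cell RNA helicase gene Ddx4 had 4, 3 and 3 against 0, 0 and 2, and the RNA-binding protein gene Dazl 2, 0 and 0 against 1, 0 and 0. These rows cover only part of each gene, for Piwil2 292, for Ddx4 172 and for Mei1 82 bases, against nearly the whole of Asz1, so their counts do not rank the genes. With shared rows added, 9 were tested, of which 3 were higher and 2 lower, with a median log2 fold change of 0.44; 20.2% of all rows were higher and 19.7% lower. The shared row with the largest rise, with 10, 3 and 12 counts against 169, 199 and 144 (log2 fold change 4.49 ± 0.45, edgeR adjusted p = 0.000222), covers 850 bases of Aire, a gene of thymic antigen display, and only 52 of Dnmt3l. The one with the largest fall, with 185, 281 and 243 counts against 31, 20 and 19 (-3.15 ± 0.31, edgeR adjusted p = 0.000222), covers 833 bases of the heat shock protein gene Hspa4l and 161 of Slc25a31, an ATP and ADP carrier gene of germ cells. A row over 179 bases of Slc23a4 and 71 of the meiosis gene Stra8 had 0, 0 and 0 against 13, 77 and 4 counts and was not tested. All tested genes named by position had a median of -0.0035 on the same scale.

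**Figure D3:**
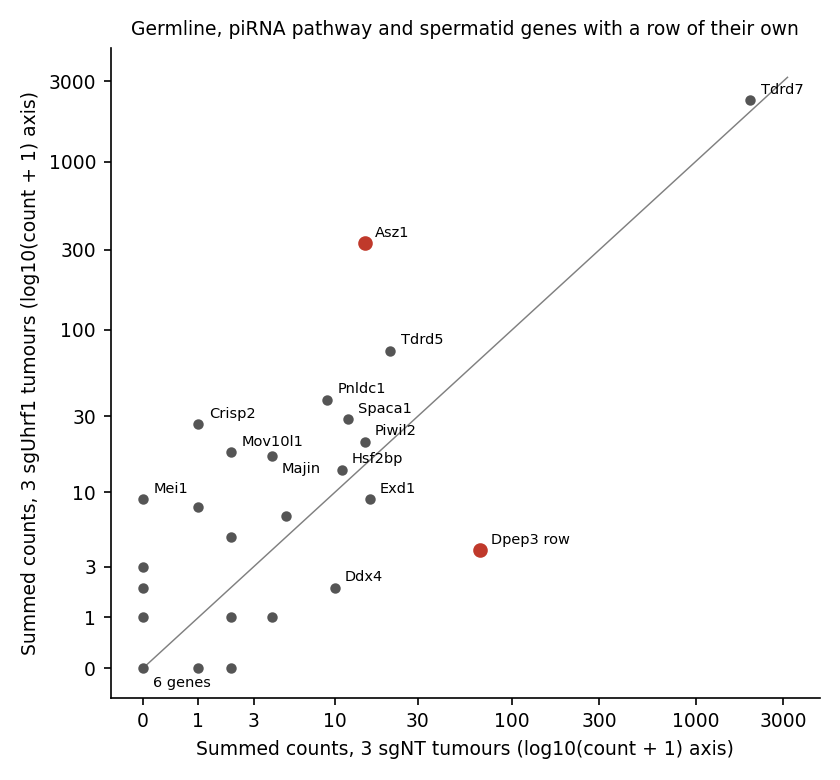
Counts summed over the 3 sgNT tumours (x axis) and the 3 sgUhrf1 tumours (y axis), both on a log10(count + 1) scale, for germline, piRNA pathway and spermatid genes with a row of their own; the line marks equal sums. Asz1 and the Dpep3 row (red) lie far from the line on opposite sides, while most other genes have few counts in both groups.

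The piRNA pathway, in which ASZ1 acts, was measured in part. Of 23 genes, 13 had their own row and 3 were tested: 2 were higher, none was lower and 1 did not pass, beside 20.6% higher and 21.5% lower of all tested genes named by position. Beside Asz1 the higher gene was Tdrd5, a Tudor domain protein gene of the piRNA pathway. It had 10, 8 and 3 counts in sgNT and 16, 45 and 14 in sgUhrf1, a log2 fold change of 1.96 ± 0.60 (SE; edgeR adjusted p = 0.0282). Its groups did not overlap, with sgUhrf1 replicate 2 highest, as for Asz1. The call was lost without sgNT replicate 2, without sgNT replicate 3, without sgUhrf1 replicate 2, and without sgNT replicate 2 and sgUhrf1 replicate 1 together, with an adjusted p of up to 0.132. Tdrd7, a relative also expressed in somatic tissue such as the lens, had 106.5 ± 8.81 CPM in sgNT and 142 ± 17 CPM in sgUhrf1 (log2 fold change 0.41 ± 0.17, adjusted p = 0.0820). Among genes too low for a test, the piRNA trimming nuclease gene Pnldc1 had 5, 3 and 1 against 23, 6 and 9 counts, and Mov10l1, the helicase that starts piRNA processing, 0, 0 and 2 against 3, 1 and 14. With shared rows, 7 were tested and 4 were higher, where 20.2% of all rows were. The rows that include Piwil4 (2.17 ± 0.47) and Tdrkh (2.09 ± 0.50) added the further calls, and both were lost without sgNT replicate 2 and sgUhrf1 replicate 1 together. The first of these rows covers 343 bases of Piwil4, 217 of Gm15586, 100 of Fut4 and 9 of Gm10706. The second covers 180 bases of Tdrkh, 472 of Celf3, 93 of Oaz3 and 64 of 1700040D17Rik.

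Of 26 genes of later sperm development, 6 had their own row, and none had enough counts for a test. Their summed counts were 10, 3 and 1 against 18, 21 and 21. Spaca1, an acrosome membrane protein gene, was highest with 9, 3 and 0 against 10, 4 and 15 counts. Crisp2, a sperm tail and acrosome protein gene, had 1, 0 and 0 against 7, 14 and 6. Markers of germ cells were also near the floor: 3 of 8 had their own row (Dazl, Ddx4 and Zbtb16), with a summed level of 0.709 to 1.04 CPM in sgNT and 0 to 1.76 CPM in sgUhrf1 tumours. These rows cover 189, 172 and 196 bases.

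Among relatives of Dpep3 and the steps next to it in the breakdown of glutathione and leukotrienes, 7 of 16 genes had a row of their own and 4 were tested. Ggt7 and Ggt5, of the gamma-glutamyltransferase family whose products dipeptidases can cleave further, rose, the Dpep3 row fell, and Ltc4s, the leukotriene C4 synthase, did not pass at 1.09 ± 0.53 (adjusted p = 0.131). Ggt7 had 6, 6 and 1 counts against 52, 38 and 61 over a stretch of 99 bases, a log2 fold change of 3.75 ± 0.60 (SE; edgeR adjusted p = 0.00161). For Ggt5 the change was 1.32 ± 0.43 (adjusted p = 0.0373), and 8 of 15 other fits lost the call, among them those without sgNT replicate 1, 2 or 3 and without sgUhrf1 replicate 1 or 3. Dpep1, the renal member of the dipeptidase family, had 3, 0 and 0 counts in sgNT and 6, 9 and 9 in sgUhrf1 tumours, too few for a test. The median log2 fold change of the 4, which include the Dpep3 row itself, was 1.21. With shared rows added, 10 were tested, of which 3 were higher and 1 lower, and the median was 0.37. Of all rows, 20.2% were higher and 19.7% lower. The row that includes Ggt1 added the further call (1.31, adjusted p = 0.0145), which 3 of 15 other fits lost. Over all tested genes named by position the median was -0.0035, with 20.6% higher and 21.5% lower.

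Asz1 lies between Wnt2 and Cftr, and rows around it on chromosome 6 cover nearly whole genes, so its neighbours can be read with some confidence. Wnt2, a secreted signalling protein gene that starts 78.5 kb from the Asz1 start, had 9, 37 and 22 counts against 128, 84 and 331. All sgUhrf1 tumours were higher, and Wnt2 rose from 3.60 ± 2.05 to 36.3 ± 32.0 CPM (SD, n = 3 each), by a log2 fold change of 3.31 ± 0.69 (SE; edgeR adjusted p = 0.00551) that passed in all 15 other fits. Over these fits it ran from 2.30, without sgUhrf1 replicate 3, to 4.004, without sgNT replicate 2 and sgUhrf1 replicate 1. The order of the sgUhrf1 tumours differed: replicate 3 was highest for Wnt2 and replicate 2 for Asz1. Cftr, the chloride channel gene on the other side, shares its row with 129 bases of the antisense RNA Gm15592. It had 386, 161 and 0 counts in sgNT and 291, 982 and 178 in sgUhrf1 tumours, which overlap, and its change of 1.54 ± 1.07 did not pass (adjusted p = 0.281). Like Asz1, Cftr had no count in sgNT replicate 3 and was highest in sgUhrf1 replicate 2.

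Farther out both directions were found. Of 13 genes listed around Asz1, 7 were tested in rows of their own: 3 were higher (Asz1, Wnt2 and the RNA-binding protein gene Lsm8), 3 were lower and 1 did not pass, with a median of -0.34, where the shares over every gene named by position were 20.6% higher and 21.5% lower. With shared rows added, 11 were tested, of which 4 were higher and 3 lower, and the median was 0.60, on the other side of 0. Of all rows, 20.2% were higher and 19.7% lower. The added call was the row of St7 and Gm26738 (0.60 ± 0.20, adjusted p = 0.0417), which 10 of 15 other fits lost. The rows that include Cftr, Cttnbp2 and Tes did not pass. The lower genes were Cav1 and Cav2, which build caveolae, and the growth factor receptor gene Met. They lie 645 to 828 kb from the Asz1 start, on the side of Wnt2. Lsm8 lies 739.5 kb away on the side of Cftr. Cav1 fell by 1.44 ± 0.32 (SE; edgeR adjusted p = 0.00783) and Cav2 by 0.74 ± 0.15 (adjusted p = 0.00522) on the log2 scale. The change of Met was -0.70 ± 0.17 (adjusted p = 0.0110), which did not pass without sgNT replicate 2, and neither Met nor Cav2 passed without sgNT replicate 2 and sgUhrf1 replicate 1. The actin capping gene Capza2 had a change of -0.34 ± 0.23 (adjusted p = 0.265), and Lsm8 one of 0.70 ± 0.24 (adjusted p = 0.0452) that 8 of 15 other fits lost, among them those without sgNT replicate 2 or 3 and without any 1 of the sgUhrf1 tumours. Per kb of exon in the row, the mean level of Asz1 went from 0.275 to 6.83 CPM and that of Wnt2 from 1.60 to 16.1, while Cav1 went from 349 to 129. Even in sgUhrf1 tumours Asz1 was therefore the lowest per kb of the 7 genes tested in rows of their own.

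**Figure D4:**
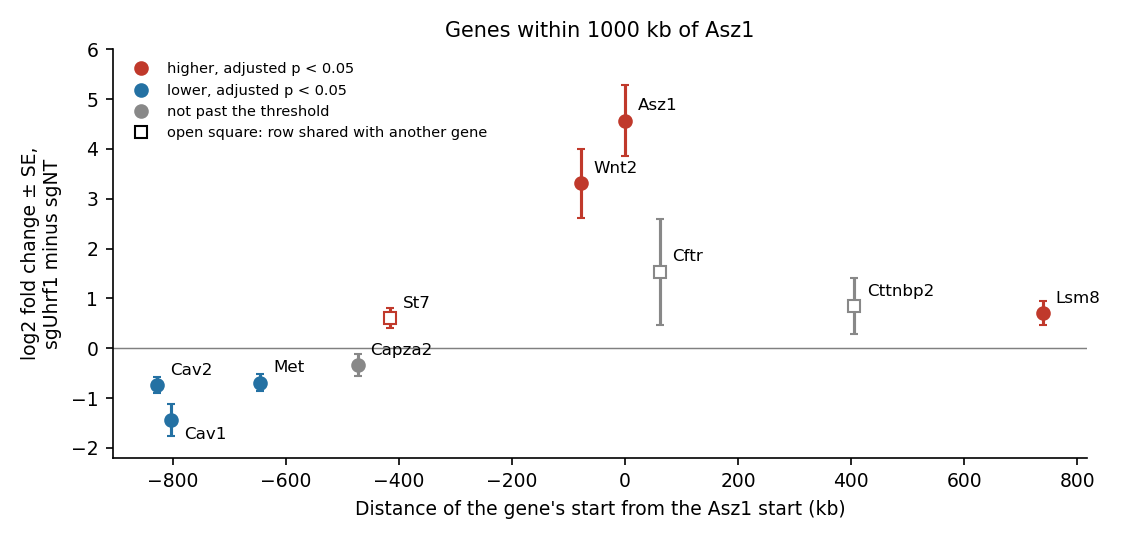
Log2 fold change (y axis, sgUhrf1 minus sgNT, bars ± SE from edgeR) of tested genes by distance of their start from the Asz1 start in kb (x axis). Asz1 at 4.57 and Wnt2 at 3.31 stand above all others shown, and Cav1, Cav2 and Met are lower.

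Around Dpep3 on chromosome 8, 9 of 21 listed genes were tested in rows of their own, with 1 higher, 3 lower and 5 not past the threshold, and a median of -0.26. These 4 calls among 9 genes are close to the share of 42.2% over all tested genes named by position. Beside the Dpep3 row the lower genes were Nfatc3, a transcription factor gene (-1.06 ± 0.26, adjusted p = 0.0121), and the RNA helicase gene Ddx28 (-0.78 ± 0.24, adjusted p = 0.0303), both smaller changes than that of the Dpep3 row. A nearby row shared by Dpep2nb, Dus2 and Dpep2 was not tested, with 14, 7 and 20 counts against 0, 1 and 2. This shared row also fell without overlap, from a mean of 2.27 to 0.20 CPM. Dpep2nb, which is not in the list, starts 26.5 kb from the Dpep3 start. Slc7a6, an amino acid transporter gene, was higher (0.60 ± 0.18, adjusted p = 0.0269). A shared row over 648 bases of Prmt7 and 276 of Smpd3, a sphingomyelinase gene, was higher by 1.95 ± 0.23 (adjusted p = 0.000469). Outside the list, the epithelial cadherin gene Cdh1, 623.9 kb from the Dpep3 start, was higher by 2.53 ± 0.29 (adjusted p = 0.000408). The call of Slc7a6 was lost in 9 of 15 other fits (among them those without any 1 of the sgNT tumours or without replicate 1 or 2 of sgUhrf1), that of Ddx28 in 4 (3 of them fits without sgNT replicate 3, or without replicate 1 or 2 of sgUhrf1) and that of Nfatc3 in 3 (among them without sgNT replicate 2 or 3).

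Genes of DNA methylation and of the complexes that repress germline genes mostly did not pass the test. Of 29, 14 had their own row and 13 were tested: none was higher, 2 were lower and 11 did not pass, with a median of -0.37. The share called over the 4578 named genes in the test was 42.2% (20.6% up, 21.5% down). Ehmt2, a histone H3 lysine methyltransferase gene read over 82 bases, had -0.66 ± 0.23 (adjusted p = 0.0429) and lost the call in 6 of 15 other fits, among them those without sgNT replicate 2 or 3 and without sgUhrf1 replicate 1 or 3. The change of Uhrf1 itself was -0.37 ± 0.23 (adjusted p = 0.227) and that of Dnmt1 -0.46 ± 0.26 (adjusted p = 0.196). Mga, which encodes a DNA-binding subunit of a germline repressor complex, had 0.17 (adjusted p = 0.549). The labels do not give the guide's position, and a cut gene can still be transcribed, so the Uhrf1 level does not check the labels.

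Marker sums of epithelium and leukocytes were higher in sgUhrf1 tumours without overlap, while those of fibroblasts, skeletal muscle, endothelium and Y-linked genes overlapped between groups. Over 5 of 10 markers of lung and simple epithelium with a row of their own, the summed level was 439, 248 and 157 CPM in sgNT and 1693, 2882 and 2165 CPM in sgUhrf1 tumours. It ranked all 6 tumours in the order that Asz1 did. Of these markers, Krt7, Cdh1 and Sftpd rose, Sftpb did not pass and Krt19 was too low for a test. Of the lung-defining markers, Nkx2-1, in a shared row, had 1 count in all and Sftpc had no row. Per 100 CPM of this sum, Asz1 stood at 0.361, 0.299 and 0 CPM in sgNT and 0.722, 1.01 and 0.762 CPM in sgUhrf1 tumours, still without overlap but with a fold of means of 3.78 in place of 24.8. Y-linked genes, which female hosts lack, summed to 95.8, 71.2 and 70.5 CPM against 162, 78.1 and 230 CPM over 4 of 4 genes. Per 100 CPM of these, Asz1 stood at 1.65, 1.04 and 0 against 7.54, 37.2 and 7.16, a fold of 19.3. For both ratios the exact two-sided permutation p was 0.1, the smallest possible. Leukocyte markers (8 of 15 with a row) summed to 247 to 266 CPM in sgNT and 329 to 791 CPM in sgUhrf1. Of 7 tested, 5 were higher, while C1qc and Ptprc did not pass (edgeR adjusted p = 0.164 and 0.534). C1qc made up most of the sgNT sum, with 199, 237 and 153 CPM against 386, 136 and 448. Fibroblast markers (5 of 8) summed to 11712 to 18708 and 7303 to 17360 CPM. Of 5 tested, none was higher and 2 were lower: Fn1 (-2.11 ± 0.37, adjusted p = 0.00270) and Pdgfra (-1.73 ± 0.49, adjusted p = 0.0211). Over the named genes in the test, 20.6% rose and 21.5% fell past the threshold. Endothelial markers (3 of 5) summed to 35.3 to 81.7 and 44.6 to 90.4 CPM. Skeletal muscle markers (4 of 11) ranged from 0.354 to 255 CPM in sgNT and 12.4 to 192 CPM in sgUhrf1, highest in sgNT replicate 2 and sgUhrf1 replicate 1. Without both of these tumours Asz1 and the Dpep3 row still passed. Per 100 CPM of the leukocyte sum, Asz1 stood at 0.641, 0.279 and 0 against 1.88, 8.82 and 2.09, without overlap and with a fold of 13.9. The fold was 33.8 per fibroblast sum and 16.4 per endothelium sum, again without overlap. Per 100 CPM of the muscle sum, it overlapped between groups, at 55.6, 0.291 and 0 against 6.38, 234.6 and 91.5, with a fold of 5.95. These ratios do not show which cells held the Asz1 RNA. The part of these cell types in the level of Asz1 or of the Dpep3 row was not tested.

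The genes most like Asz1 over the 6 tumours, by Pearson r of log2 CPM among 4248 genes, were Cyp3a13 (0.997), a cytochrome P450 gene, Plekha6 (0.997), Naip6 (0.996), an inflammasome receptor gene with near copies, Snhg18 (0.996), a small nucleolar RNA host gene, and Slc26a9 (0.995), an epithelial chloride transporter gene. Cyp3a13 had nearly the same CPM, with means of 0.772 and 19.0. Its row covers 163 exon bases against 2817 for Asz1, so equal CPM is not an equal level per base of exon. Most like the Dpep3 row were Fam210b (0.988), Adarb1 (0.987), an RNA editing enzyme gene, the growth factor gene Pgf (0.984), Rmdn3 (0.984) and Pgam5 (0.984), a mitochondrial phosphatase gene. All points share the same 6 libraries in 2 separated groups, so these values describe likeness across those groups only.

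Total counts ran from 5462555 to 6375069 per tumour, over 16051 to 18771 rows with a count, and 3 counts equalled 0.445 to 0.660 CPM.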

How the data were processed

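RNA was selected with poly-T beads and sequenced in pairs, per the labels' protocols. Per the submitters' processing notes, fastp, STAR and featureCounts were used with build GRCm38; the file headers give featureCounts 2.0.1 on paired reads over exons, without strand and without multiple assignment. The deposited values are raw counts per row, 1 table per tumour. Row names come from a GRCm39 annotation, so rows were renamed by position with GENCODE M21 exons (at least 50 bp of 1 gene, small RNAs ignored). This named 13437 of 53599 rows, holding 40.3% of counts; 4952 rows covering several genes held 57.9%. Of the named rows, 419 (3.12%) had no exon base in that row alone.

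All rows were tested with edgeR 4.0.16 in R 4.3.3 (TMM, filterByExpr with a minimum count of 10 and a minimum total of 15, quasi-likelihood F test, Benjamini-Hochberg over 10503 rows, threshold 0.05); adjusted p-values and SE are from this fit. The fit was tested on simulated counts. Alternatives used DESeq2 1.42.0, limma 3.58.1 (voom), other scalings and filters, a replicate block and left-out tumours. Tumours of a group are labelled biological replicates. The p-values set the difference between groups against the spread between these tumours. They do not cover differences between separately made lines.

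Members and the 7 gene lists were chosen with earlier results of these data known. Named were Asz1 and Dpep3, per list up to 4 members past the threshold in each direction or up to 2 with most counts where none passed, the 5 genes most like each member (mean log2 CPM of at least 1, prior count 2) and the neighbouring genes; other low-count genes were chosen after their values were seen. Promoter sequences are from RefSeq (GRCm38.p6); both genes matched by symbol. Protein sequences were not used here. The result for 1 gene of the list of repressors and DNA methylation genes is not reported here; it is part of that list's counts and median.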

Additional observations from a re-analysis of the deposited data

How the results depend on the processing

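Asz1 stayed higher and the Dpep3 row lower, both past the threshold, under every alternative that gave them a value (15 and 14). Leaving out 1 tumour gave 1431 to 2020 higher and 1259 to 1908 lower rows, against 2121 and 2066 with all 6; the lowest count, 1259, was without sgNT replicate 2. Without sgNT replicate 2 and sgUhrf1 replicate 1 there were 1094 higher and 771 lower rows, with 2 tumours a group. With the replicate number as a block, Asz1 had a log2 fold change of 4.63 and the Dpep3 row -3.68, with 1838 rows higher and 1807 lower. Same-numbered tumours had correlations of -0.079, -0.021 and 0.053 between their deviations, so the numbers were not taken as pairs. Requiring 50 bp of exon that lie in no other row, a choice made after seeing the data, leaves no Dpep3 row. No row covers at least 200 bp of Dpep3 alone, and neither gene has a further row to sum, so those alternatives gave no value. Depth and row length limit the germline list: 19 of its 20 other genes with a row had fewer than 30 counts in all, and only 22 of its 47 genes had a row of their own.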
